A study of Mus musculus with 6 samples.

Results

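The 10 genes followed belong to interleukin-1 (IL-1) and interleukin-18 (IL-18) signalling in irradiated mouse skin. They were chosen by name: the ligand genes Il1a, Il1b and Il18, the antagonist gene Il1rn, the receptor subunit genes Il1r1, Il1rap and Il18rap, and the sensor genes Nlrp3, Nod1 and Nod2. All 10 were found among the 254 genes of the nCounter Mouse Inflammation V2 panel, which counts RNA molecules through barcoded probes without amplification. The UV plus BMS-202 group (n = 3) and the UV group (n = 3) were full-thickness back skin of hairless SKH-1 mice, taken 24 h after 1 acute dose of solar simulated light (90 kJ/m2 UVA and 6 kJ/m2 UVB). Both groups were treated on the skin 3 times with 200 µl of liquid, at 24 h and 1 h before and directly after irradiation. The liquid carried 8 mM BMS-202 for UV plus BMS-202 skin and was the vehicle, acetone, for UV skin. BMS-202 is a small-molecule inhibitor that binds PD-L1, an immune checkpoint ligand. Age and sex are not given in the labels, and unirradiated skin was not analysed here. The comparison asks what topical PD-L1 blockade does to inflammatory gene expression in UV-exposed skin.

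IL-1 alpha and IL-1 beta bind the receptor encoded by Il1r1, which signals once the accessory protein encoded by Il1rap joins it. The product of Il1rn occupies the same receptor without signalling and so limits both ligands. IL-1 beta and IL-18 are made as inactive precursors that caspase-1 cleaves in inflammasomes, among them the one built on NLRP3, whereas keratinocytes hold IL-1 alpha and IL-18 precursors in store before any injury. NOD1 and NOD2 sense fragments of bacterial cell walls and signal through the kinase RIPK2 to NF-kB. Transcript levels, measured here, do not show cleavage or release.

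The promoter windows of the genes on which the comparisons below turn are shown first: the ligands, the antagonist, and the IL-18 receptor subunit that was higher where Il18 was lower. Each line runs 5′ to 3′ from 250 bases before to 50 bases after a transcription start in RefSeq (GRCm38.p6), and for Il1rn, which has several starts, the most upstream is given. All 10 genes matched the RefSeq table, with 15 windows in all. Capitals mark matches on either strand to TGANTCA (the AP-1 motif), TATAAA (the TATA box), CCAAT and GAGGAA (the PU.1 core), none of which overlap here. GAAANNGAAA (the ISRE core) and the NF-kB motif were also searched and had no match in these windows.
Il1a, chr2:129309923-129310222, minus strand: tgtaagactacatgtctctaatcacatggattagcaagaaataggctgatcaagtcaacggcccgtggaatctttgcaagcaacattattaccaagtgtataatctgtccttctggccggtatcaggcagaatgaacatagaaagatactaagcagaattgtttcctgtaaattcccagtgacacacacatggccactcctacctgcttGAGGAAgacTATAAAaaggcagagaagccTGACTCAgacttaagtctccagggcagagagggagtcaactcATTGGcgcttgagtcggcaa
Il1b, chr2:129371090-129371389, minus strand: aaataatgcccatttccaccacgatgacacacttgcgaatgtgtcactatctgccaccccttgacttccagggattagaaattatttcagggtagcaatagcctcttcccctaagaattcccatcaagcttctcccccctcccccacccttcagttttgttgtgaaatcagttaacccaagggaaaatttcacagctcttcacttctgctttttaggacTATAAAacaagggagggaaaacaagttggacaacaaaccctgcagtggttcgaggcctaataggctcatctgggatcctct
Il18, chr9:50554450-50554749, plus strand: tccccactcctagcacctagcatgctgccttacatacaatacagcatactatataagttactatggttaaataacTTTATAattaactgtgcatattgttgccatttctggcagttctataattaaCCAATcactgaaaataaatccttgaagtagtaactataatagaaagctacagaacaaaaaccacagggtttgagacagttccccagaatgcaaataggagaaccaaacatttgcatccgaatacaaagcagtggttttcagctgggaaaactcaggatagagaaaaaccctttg
Il1rn, chr2:24336610-24336909, plus strand: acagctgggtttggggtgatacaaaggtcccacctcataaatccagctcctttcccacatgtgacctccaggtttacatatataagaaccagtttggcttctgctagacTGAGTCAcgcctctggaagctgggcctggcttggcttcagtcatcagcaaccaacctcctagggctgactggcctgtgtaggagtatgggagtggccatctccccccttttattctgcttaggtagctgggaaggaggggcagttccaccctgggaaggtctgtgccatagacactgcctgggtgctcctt
Il18rap, chr1:40515112-40515411, plus strand: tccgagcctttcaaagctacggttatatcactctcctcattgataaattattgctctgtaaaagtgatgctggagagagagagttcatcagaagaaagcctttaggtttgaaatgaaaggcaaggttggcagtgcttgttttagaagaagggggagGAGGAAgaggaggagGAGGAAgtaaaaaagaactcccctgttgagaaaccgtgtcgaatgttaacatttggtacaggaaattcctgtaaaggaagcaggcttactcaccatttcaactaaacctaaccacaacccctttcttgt
The window of Il1a held TATAAA at -32, TGANTCA at -12, GAGGAA at -41 and a reverse-strand CCAAT at 30 relative to the start, and that of Il1b held TATAAA at -31. The Il1rn window held TGANTCA at -141. The Il18 window had CCAAT at -124 and a reverse-strand TATAAA at -175, and the Il18rap window had GAGGAA at -94 and -79. Of 32851 promoter windows of the same length, 7.81% hold TGANTCA, 13.6% TATAAA, 37.4% CCAAT, 28.3% GAGGAA, 3.44% GAAANNGAAA and 4.51% the NF-kB motif. The matches describe letters only, and no binding was measured.

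Signals were deposited after scaling by 1 factor per sample, which gives the glycolytic gene Gapdh an equal value in all 6, and no value is below a floor of 20. Recovered gene counts totalled 41537 to 45040 in UV plus BMS-202 samples and 142900 to 160891 in UV samples. Relative to Gapdh the other 5 housekeeping genes were 2.33-fold (Tubb5) to 10.6-fold (Gusb) lower with BMS-202, so each direction below is relative to Gapdh and is set beside 5 other scalings. The limit of the negative control probes (mean + 2 SD) reached 45.3 in UV plus BMS-202 skin and 26.6 in UV skin. All 10 genes were above 20 in all 6 samples. The labels name 3 mice per group without tying samples to mice, and the spread between samples may be technical. Fewer cells of a type and less RNA per cell cannot be told apart in whole skin.

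Of the 10 genes, 8 were lower relative to Gapdh in UV plus BMS-202 skin than in UV skin, Il18rap was higher and Nlrp3 did not pass (limma, adjusted p under 0.05). Over the whole panel 132 of 240 tested genes (55%) were lower and 92 (38.3%) higher. Genes at the floor of 20 in every UV sample, such as Ifng, could not read lower. Those at it throughout UV plus BMS-202 skin, such as Mef2c_Mm, could not read higher. The floor held 49 to 51 panel genes per UV sample and 18 to 19 per UV plus BMS-202 sample, tested or not. No member lay on it, so the panel shares here and below are not a like background for the members, nor for lists with few genes on it. Log2 differences are those of log2(value + 1), UV plus BMS-202 skin less UV skin, and their median was -1.35 for the 10 genes and -0.56 for the panel. With so many genes called, the counts alone set the family little apart, and the sections below turn on size and on ratios within a sample. The groups did not overlap for 9 of the 10 genes: 8 lay wholly lower, against 56.2% of the panel, and 1 wholly higher, against 38.8%.

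**Figure D1:**
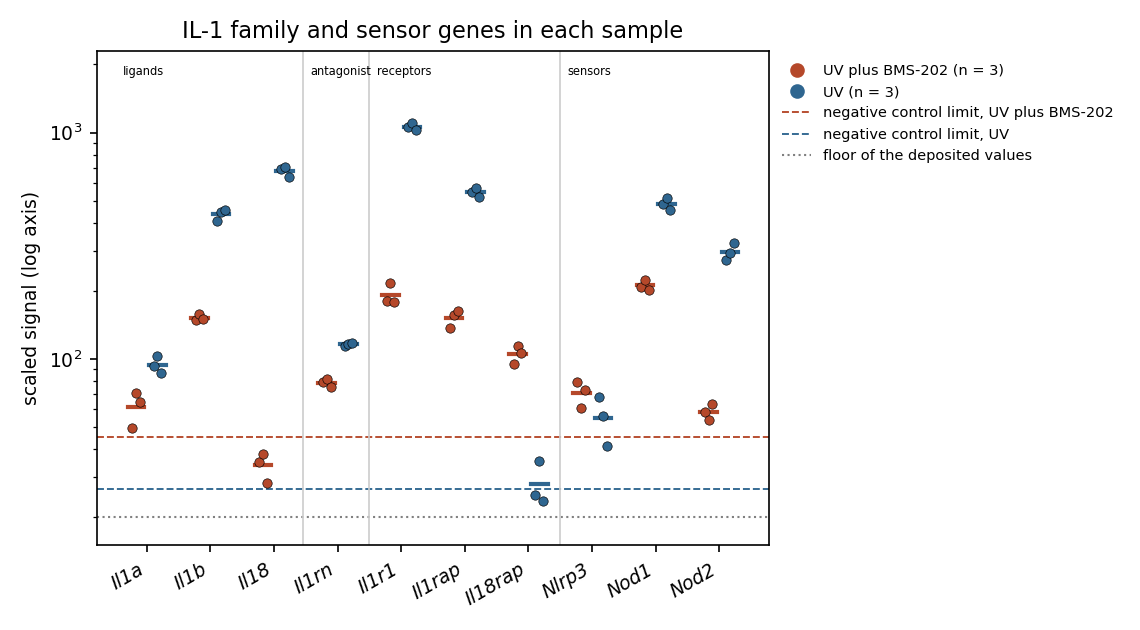
Scaled signal of the 10 genes in each sample (log axis), UV plus BMS-202 left and UV right for each gene. Points are samples (n = 3 per group), bars are group means, dashed lines are the highest negative control limits (45.3 for UV plus BMS-202, 26.6 for UV) and the dotted line is the floor of 20. Il18 with BMS-202 lies under the limit, and only Nlrp3 has overlapping groups.

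Il18 had the lowest log2 difference of all 240 tested genes. It read 35.1, 38.2 and 28.4 in UV plus BMS-202 skin, against 691, 707 and 638 in UV skin. Every value with BMS-202 lay under its own sample's negative control limit, where 26 to 32 probe counts stood against 731 to 843 in UV skin. By its means Il18 was 20.02-fold lower (log2 difference -4.29 ± 0.11 SE, limma adjusted p = 7.49e-11). Set against the limit of 45.3 in place of the measured mean, Il18 was at least 14.99-fold lower. The gene was lower under all 6 scalings, from -4.67 with positive spike-in controls to -1.61 with the 5 housekeeping genes other than Gapdh. Because values under the limit have no firm order, its place at the end of the ranking is approximate.

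Il1b, the inflammasome-processed IL-1 ligand gene, was lower by less relative to Gapdh. It read 149, 158 and 151 in UV plus BMS-202 skin, against 409, 445 and 455 in UV skin. The coefficient of variation within a group was 2.95% with BMS-202 and 5.58% with UV. Counting noise alone would give about 8.74% and 4.48% at these probe counts, so the 2.95% does not show a small spread of the gene. The log2 difference was -1.51 ± 0.066 (SE, adjusted p = 3.56e-09), but under scaling to the 6 housekeeping genes it was 0.74, under scaling to the 5 it was 1.19, and under quantile normalization it did not pass (-0.13, adjusted p = 0.102).

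Il1a, the alarmin ligand gene, had a smaller difference and a wider spread. It read 49.7, 70.4 and 64.4 in UV plus BMS-202 skin, against 92.7, 103 and 86.4 in UV skin. The highest sample with BMS-202 stayed below the lowest with UV. The log2 difference of -0.62 ± 0.14 (SE, adjusted p = 0.00156) became 1.53 when scaled to the 6 housekeeping genes, 1.55 to the 5 and 0.35 to the panel median. It was -1.04 with the negative control mean subtracted, an alternative added after the data were seen. Rescaling raises the floor, and 2 of the 3 UV values lay on it with the 6 and all 3 with the 5. The 1.53 and 1.55 therefore depend on that floor.

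Il1rn, the antagonist gene, read 78.8, 81.1 and 75.4 in UV plus BMS-202 skin, against 114, 117 and 118 in UV skin. It had the tightest UV values of the 10 genes, with a coefficient of variation of 1.69%. Counting noise alone would give about 8.69% at its probe counts, so 3 values this close do not show a small spread of the gene. Its log2 difference was -0.56 ± 0.086 (SE, adjusted p = 1.04e-04), the panel median to 2 decimals, and scaling to the 6 housekeeping genes, the 5 or the panel median made it 1.67, 1.91 or 0.40. With the 5 its 3 UV values lay on the raised floor.

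Il1r1, the signalling receptor gene, read 181, 217 and 179 in UV plus BMS-202 skin, against 1056, 1107 and 1027 in UV skin. Its log2 difference of -2.47 ± 0.077 (SE, adjusted p = 3.03e-10) had no call with the 6 housekeeping genes (-0.21, adjusted p = 0.0532) and turned to 0.24 with the 5. Il1rap, the accessory subunit shared by the IL-1 and IL-33 receptors, read 137, 156 and 163 in UV plus BMS-202 skin, against 545, 568 and 520 in UV skin. Both receptor genes were thus lower relative to Gapdh in every sample with BMS-202. The log2 difference of Il1rap was -1.84 ± 0.076 (SE, adjusted p = 2.47e-09), or 0.42 when scaled to the 6 housekeeping genes and 0.87 to the 5.

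Il18rap, the signalling subunit gene of the IL-18 receptor, was the member that rose. It read 94.5, 115 and 106 in UV plus BMS-202 skin, against 25.0, 35.2 and 23.6 in UV skin. All values with BMS-202 were above the negative control limit, while 1 of the 3 UV values lay under its own sample's limit. By its means it was 3.76-fold higher (log2 difference 1.89 ± 0.15 SE, adjusted p = 5.17e-07). It stayed higher under all 6 scalings, from 1.25 with quantile normalization to 2.33 with the 6 housekeeping genes, although the raised floor of housekeeping and panel-median scaling held its 3 UV values. With the negative control mean subtracted, an alternative added after the data were seen, it was 84.1 ± 9.98 in UV plus BMS-202 skin and 16.8 ± 6.00 in UV skin (mean ± SD, n = 3).

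Among the sensors, Nod2 had the larger difference. It read 58.2, 53.7 and 63.3 in UV plus BMS-202 skin, against 272, 294 and 326 in UV skin. The log2 difference was -2.33 ± 0.099 (SE, adjusted p = 3.08e-09), with no call with the 6 housekeeping genes (-0.087, adjusted p = 0.378) and a turn to 0.36 with the 5. Nod1, its paralogue that senses a different peptidoglycan fragment, read 208, 224 and 201 in UV plus BMS-202 skin, against 486, 514 and 455 in UV skin. Nod1 had a log2 difference of -1.19 ± 0.068 (SE, adjusted p = 3.16e-08), which turned to 1.06 and 1.51 with the 6 and 5 housekeeping genes and to 0.53 with quantile normalization.

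Nlrp3, the inflammasome sensor gene, read 78.8, 60.9 and 73.2 in UV plus BMS-202 skin, against 67.7, 56.2 and 41.0 in UV skin. The groups overlapped. The log2 difference was 0.38 ± 0.17 (SE, 95% interval -0.0089 to 0.77, adjusted p = 0.0578). Without the first UV sample the same test gave 0.54 (adjusted p = 0.0143). It passed upward with the panel median (1.34) and the 6 and 5 housekeeping genes (1.76 each) and downward with quantile normalization (-0.62, adjusted p = 0.0210). With the 6 and the 5 the 3 UV values of Nlrp3 lay on the raised floor, so the 1.76 depends on that floor. Per positive spike-in count the level of Nlrp3 with BMS-202 was 0.995 of that with UV.

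**Figure D2:**
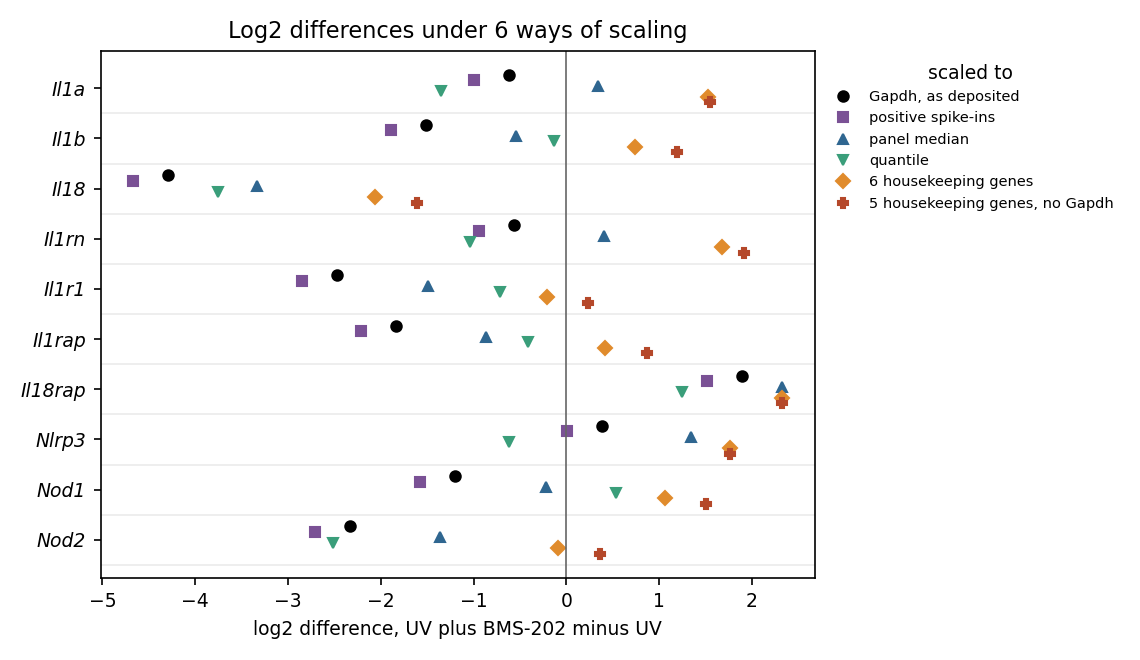
Log2 difference, UV plus BMS-202 minus UV, of each gene under 6 ways of scaling; each symbol is 1 scaling and the line marks 0. Il18 is negative (-4.67 to -1.61) and Il18rap positive (1.25 to 2.33) under all 6, while the other 8 genes have symbols on both sides of 0.

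The choice of scaling moved the median of all tested genes by 1.97 with the 6 housekeeping genes, 2.19 with the 5, 0.96 with the panel median, 0.66 with quantile normalization and -0.38 with spike-in controls. Under the 6 housekeeping genes 7 members were higher and 1 lower, beside 183 (78.9%) and 33 (14.2%) of 232 tested panel genes. Under the 5 it was 9 and 1, beside 203 (87.9%) and 17 (7.36%) of 231. With the panel median 4 members were higher and 6 lower, beside 124 (52.3%) and 97 (40.9%) of 237 tested panel genes. With quantile normalization 2 members were higher and 7 lower, beside 99 (41.2%) and 96 (40%) of 240. With spike-in controls it was 1 and 8, beside 82 (34.3%) and 142 (59.4%) of 239. Since the sign of 8 members differed between scalings, ratios between members in the same sample are given next.

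Ligands and receptors were set against the antagonist within each sample, a ratio that a factor per sample does not move unless a value meets a raised floor. Il1a over Il1rn was 0.631, 0.868 and 0.855 in UV plus BMS-202 skin, against 0.813, 0.885 and 0.733 in UV skin. These values overlapped, with a fold of 0.96 between the groups (95% interval 0.78 to 1.18, limma adjusted p = 0.697, exact two-sided permutation p = 0.8). Il1b over Il1rn was 1.9, 1.9 and 2.0 in UV plus BMS-202 skin, against 3.6, 3.8 and 3.9 in UV skin, so Il1b was lower relative to the antagonist in all samples as deposited. The log2 difference of this ratio was -0.95 ± 0.070 (SE, adjusted p = 2.22e-08), and it turned to 0.90 with quantile normalization, which is not a factor per sample.

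The receptor genes were lower relative to the antagonist by more. Il1r1 over Il1rn averaged 2.45 ± 0.202 in UV plus BMS-202 skin and 9.16 ± 0.400 in UV skin (mean ± SD, n = 3), a log2 difference of -1.91 (adjusted p = 1.88e-11) that turned to 0.32 with quantile normalization. Il1rap over Il1rn averaged 1.94 ± 0.211 in UV plus BMS-202 skin and 4.69 ± 0.241 in UV skin, a log2 difference of -1.28 (adjusted p = 8.35e-09) that turned to 0.62 with quantile normalization. Il18 over Il1rn averaged 0.431 ± 0.0486 in UV plus BMS-202 skin and 5.85 ± 0.375 in UV skin. In all, 6 of 9 ratios to Il1rn were lower, 2 (Il18rap and Nlrp3) higher and 1 (Il1a) not past, beside 46.4% lower and 46% higher over the panel. Nlrp3 over Il1rn (log2 0.94, adjusted p = 2.00e-04) did not pass with the 6 housekeeping genes (0.088, adjusted p = 0.451) or with quantile normalization (0.41, adjusted p = 0.1004). With the 6 the 3 UV values of Nlrp3 lay on the raised floor, which moved that ratio, as the factor per sample does not. Noise of Il1rn enters every ratio of this fit, so its p-values can be too small. An exact permutation test of 3 against 3 samples cannot go below p = 0.1, and it gave that smallest value for the other 8 ratios.

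**Figure D3:**
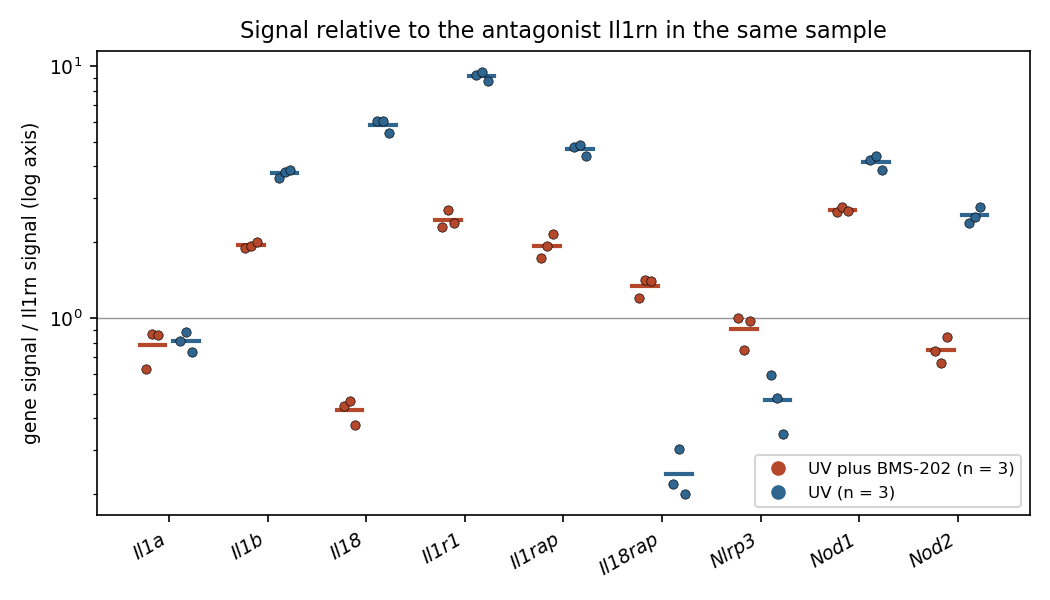
Signal of each gene divided by that of Il1rn in the same sample (log axis), UV plus BMS-202 left and UV right. Points are samples (n = 3 per group) and bars are means. Il1a overlaps between the groups, Il1b, Il18, Il1r1, Il1rap, Nod1 and Nod2 lie lower with BMS-202, and Il18rap and Nlrp3 higher, of which Il1b, Il1r1, Il1rap and Nod1 turn with quantile normalization and Nlrp3 with the 5 housekeeping genes. With the 5, the UV values of Nlrp3 and Il1rn lay on the raised floor.

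Set against the receptor gene instead, both IL-1 ligand genes were higher with BMS-202. Il1b over Il1r1 averaged 0.797 ± 0.0630 in UV plus BMS-202 skin and 0.411 ± 0.0288 in UV skin, a log2 difference of 0.96 ± 0.11 (SE, adjusted p = 4.12e-08). Il1a over Il1r1 averaged 0.320 ± 0.0425 in UV plus BMS-202 skin and 0.0883 ± 0.00457 in UV skin, a log2 difference of 1.85 (adjusted p = 3.28e-11) that turned to -0.64 with quantile normalization. Over the panel 82.8% of ratios to Il1r1 were higher and 8.37% lower, so this direction is that of most genes. Noise of Il1r1 enters every ratio of this fit, so its p-values can be too small as well. The exact two-sided permutation p was 0.1, the smallest possible, for Il1a over Il1r1 and for Il1b over Il1r1.

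A further 6 pairs were compared after the data were seen, each with exact two-sided permutation p = 0.1, the smallest possible, and 0.1 also after adjustment over the 6. Il18 over Il18rap, ligand over receptor subunit, averaged 0.324 ± 0.0524 in UV plus BMS-202 skin and 24.9 ± 4.21 in UV skin (mean ± SD, n = 3), with Il18 under the negative control limit in UV plus BMS-202 skin. Il18 over Il1b averaged 0.222 ± 0.0294 in UV plus BMS-202 skin and 1.56 ± 0.146 in UV skin. Il18 was thus lower relative to Il1b as well as to Gapdh.

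Within receptors, Il1rap over Il1r1 averaged 0.796 ± 0.0997 in UV plus BMS-202 skin and 0.512 ± 0.00482 in UV skin, a log2 difference of 0.63, or 0.30 with quantile normalization. Within ligands, Il1b over Il1a averaged 2.53 ± 0.414 in UV plus BMS-202 skin and 4.66 ± 0.521 in UV skin, turning the other way with quantile normalization (log2 1.22). Within sensors, Nod2 over Nod1 was 0.279, 0.239 and 0.315 in UV plus BMS-202 skin, against 0.561, 0.571 and 0.718 in UV skin, so Nod2 was lower relative to its paralogue in every sample. The log2 difference was -1.13, or -3.04 with quantile normalization. Nlrp3 over Nod1 averaged 0.338 ± 0.0580 in UV plus BMS-202 skin and 0.113 ± 0.0248 in UV skin, a log2 difference of 1.58. It was 0.70 with the 6 housekeeping genes and 0.25 with the 5, where the 3 UV values of Nlrp3 lay on the raised floor, and turned to -1.15 with quantile normalization.

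Ranked from the lowest of the 240 log2 differences relative to Gapdh, Il18 stood at 1, Il1r1 at 33, Nod2 at 38, Il1rap at 60, Il1b at 79, Nod1 at 98, Il1a at 119, Il1rn at 120, Nlrp3 at 154 and Il18rap at 205. In this ranking the receptor genes of IL-1 stood nearer the low end than its ligand genes, and the ligand Il1a beside the antagonist in the middle. With quantile normalization Il1a (-1.36) and Il1rn (-1.04) were lower than Il1r1 (-0.71) and Il1rap (-0.41), while Il1b (-0.13) was not. Across the panel, genes with more deposited signal in UV skin tended to have lower differences, and the UV value enters both quantities.

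**Figure D4:**
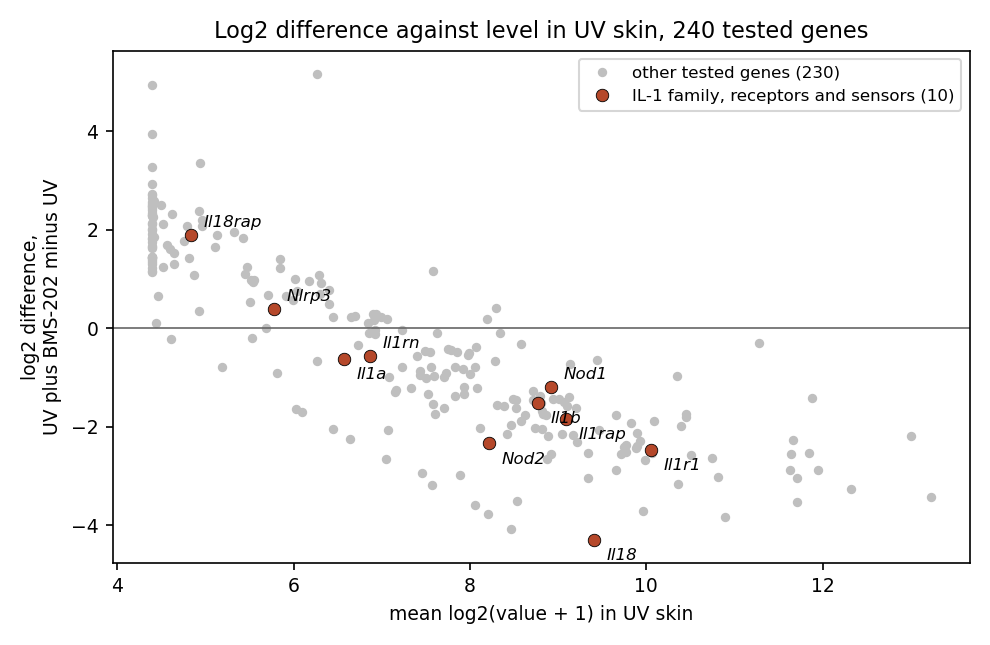
Log2 difference, UV plus BMS-202 minus UV, against mean log2(value + 1) in UV skin for 240 tested genes, relative to Gapdh. Red points are the 10 genes and grey points the other 230. Il18 (-4.29) is the lowest point, and differences are mostly above 0 at the left and below 0 at the right, a split that moves with the scaling.

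Genes whose profile over the 6 samples came nearest were found by the root mean square difference of centred log2 values, which in 2 groups follows mainly the size of the difference. For Il1rn these were Ccl22 (0.043), Ccl19 (0.064) and Rock2 (0.085), and for Il18 Mef2c_Mm (0.20), Fxyd2 (0.32) and H2-Eb1 (0.35). In UV plus BMS-202 skin Mef2c_Mm was at the floor in every sample, Fxyd2 averaged 20.6 and Il18 lay under the negative control limit, so the distances for Il18 compare values that were not above background there.

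Of 20 listed signalling genes below the receptors and sensors 9 were on the panel. All 9 were lower relative to Gapdh (median log2 -1.45), beside 55% of the panel (median -0.56), but 8 had positive differences with the 6 housekeeping genes, 9 with the 5, 2 with the panel median and 3 with quantile normalization. Tollip, which restrains IL-1 receptor signalling, read 340 ± 7.33 in UV plus BMS-202 skin and 1344 ± 29.9 in UV skin (mean ± SD, n = 3, log2 difference -1.98, adjusted p = 2.49e-11). Map3k7, the kinase TAK1 that relays IL-1 and NOD signals, read 293 ± 3.39 in UV plus BMS-202 skin and 1086 ± 2.31 in UV skin (log2 difference -1.89, adjusted p = 2.86e-11). Both turned to positive with the 6 (0.28 and 0.37) and the 5 housekeeping genes (0.73 and 0.82). No gene of the lists for inflammasome processing or for other IL-1 family members was on the panel.

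Of 12 genes known to be induced by IL-1, 9 were lower and 3 (Csf2, Csf3 and Tnf) higher relative to Gapdh (median log2 -1.42), beside 55% lower and 38.3% higher over the panel. Positive differences numbered 7 of 11 with the 6 housekeeping genes and 8 of 11 with the 5, where Cxcl2 was not tested, and 6 and 5 of 12 with the panel median and quantile normalization. Mmp3, a matrix protease gene, read 238 ± 7.07 in UV plus BMS-202 skin and 906 ± 23.9 in UV skin (log2 difference -1.93, adjusted p = 7.73e-11). It turned to 0.33 with the 6 housekeeping genes, 0.78 with the 5 and 0.037 with quantile normalization. Ccl2, a monocyte chemokine gene, read 162 ± 12.3 in UV plus BMS-202 skin and 860 ± 7.53 in UV skin (log2 difference -2.41, adjusted p = 7.97e-11), turning to 0.30 with the 5. All 5 genes listed as induced with the help of IL-18 (Ifng, Fasl, Il13, Il17a and Csf2) were at the floor of 20 in the 3 UV samples, so they entered the test only through UV plus BMS-202 skin and could not read lower. Ifng read 117 ± 9.97 and Fasl 56.6 ± 5.59 in UV plus BMS-202 skin (mean ± SD, n = 3), in the same samples in which Il18 lay under the negative control limit. Il13 read 53.3, 43.0 and 42.6 there, the second under its own sample's limit of 45.3. The others lay above their samples' limits, with Fasl (50.9 to 62.1) and Csf2 (48.1 to 66.8) not far above.

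Marker genes of cells that make or receive these cytokines also moved, and their part in the results was not tested. Of 18 macrophage and monocyte markers 13 were on the panel, with 8 lower, 2 higher and 3 not past relative to Gapdh, beside the panel's 55% lower and 38.3% higher. With the 6 housekeeping genes 10 of the 13 had positive differences, where 78.9% of the panel was called higher, and with the 5 it was 12, beside 87.9%. Their summed signal as deposited was 2322 to 2433 in UV plus BMS-202 skin, against 8287 to 8477 in UV skin. Tyrobp (mean 3248) and Itgb2 (mean 1804) carried most of that sum in UV skin. The 2 higher markers were Chi3l3, with a mean of 314 in UV plus BMS-202 skin and 29.8 in UV skin, and Cd86, with 127 and 78.3. None of these 13 was at the floor in a whole group. All 6 T cell markers on the panel were higher, with a summed signal of 439 to 475 in UV plus BMS-202 skin, against 160 to 196 in UV skin. In UV skin 3 of the 6, Ccr4, Cd40lg and Fasl, were at the floor in every sample and could not read lower with BMS-202, and Ltb (23.3) and Ccr7 (27.6) averaged near it. In UV plus BMS-202 skin Ccr4 (47.7 to 56.9) and Fasl (50.9 to 62.1) were not far above their samples' negative control limits (38.4 to 45.3). The scaled negative control mean, which the sums include, was 20.2 to 21.3 there and 10.2 to 11.6 in UV skin. Of 4 antigen presentation markers 3 were higher, of which H2-Ea-ps was at the floor in every UV sample. The other, H2-Eb1, was lower at 134 ± 29.4 in UV plus BMS-202 skin and 1904 ± 5.48 in UV skin (mean ± SD, n = 3). H2-Eb1 carried most of the summed signal in UV skin, which was 390 to 426 in UV plus BMS-202 skin, against 2039 to 2060 in UV skin. Of 2 neutrophil markers, Cxcr1 was higher from the floor and Cxcr2 did not pass. None of the keratinocyte or fibroblast markers listed was on the panel, so the labelled skin could not be checked against them. Ccr3, the only mast cell and eosinophil marker on the panel, was also higher from the floor. Myl2, a muscle marker, read 102 ± 7.82 in UV plus BMS-202 skin and was at the floor in UV skin.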

How the data were processed

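Full-thickness skin RNA of 6 samples, 3 per group by the labels' treatment field, was assayed with an nCounter panel of 254 genes (248 endogenous and 6 housekeeping). Gene values were deposited as scaled signal, as read from the values: Gapdh equals 6417 throughout, and within each sample 100% of the gene values over the floor of 20 are multiples of 1 step (tolerance 0.006, plus 1e-06 of the value). The 6 positive and 8 negative control rows are unscaled counts. For scaling software and background handling, nothing is given in the sources used here. Recovered counts were used for depth and spike-in scaling only.

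Log2(value + 1), which understates changes of low genes, was tested with limma 3.58.1 (R 4.3.3, eBayes with trend) for the 240 endogenous genes that exceeded 20 in 3 or more samples, with Benjamini-Hochberg adjustment over all of them at 0.05. Ratios to Il1rn and Il1r1 were fitted in the same way over 239 genes. Exact permutation tests of single ratios used scipy 1.17.1. The limma test of single genes was also run on simulated data. These held no negative control background, no shift of Gapdh and no ratios, so they do not bear on the choice of scaling or on the ratio fits.

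After rescaling, the highest rescaled 20 served as the floor of every sample. Alternatives were 5 scalings, 2 filters, a pseudocount of 10, no trend, a replicate block and leaving out each sample, with subtraction of the negative control mean added later. The members and lists were chosen with earlier results of these data known. Genes named are the 10 members, the 2 of each pathway list with the smallest adjusted p, the 3 nearest profiles of Il18 and Il1rn (those of Il1b, also in the rule, are not reported here), and housekeeping genes. Others (Csf2, Csf3, Cxcl2, Tnf, Il13, Il17a and markers) were named after their values were seen. Samples with the same number did not deviate together (correlations -0.033 to 0.020 over 240 genes), so numbers were not taken as pairs.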

Additional observations from a re-analysis of the deposited data

How the results depend on the processing

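Of 527 recomputed values 464 kept their direction and their call, or for counts and untested ratios stayed close to the reported value. This total includes the 2 filters, no trend and the replicate block, which cannot move a log2 difference. Of 31 values per scaling, 16 stayed so with the 6 housekeeping genes, 14 with the 5 and 15 with quantile normalization. It was 26 with the panel median and all 31 with spike-in controls. Most of the 31 are ratios within a sample, which a factor per sample does not move unless a value meets a raised floor. These totals therefore overstate how far single genes held. Among log2 differences of single genes, only those of Il18 and Il18rap kept direction and call with the 6 or the 5. With the 6 housekeeping genes panel counts were 183 higher and 33 lower, member counts 7 and 1, and log2 differences turned for Il1a (1.53), Il1b (0.74), Il1rn (1.67), Il1rap (0.42) and Nod1 (1.06). With the 5 without Gapdh the counts were 203 and 17, and 9 and 1, and those that turned were Il1a (1.55), Il1b (1.19), Il1rn (1.91), Il1r1 (0.24), Il1rap (0.87), Nod1 (1.51) and Nod2 (0.36). Here Nlrp3 relative to Il1rn turned to -0.15 and Il1a relative to Il1rn passed at -0.36 (adjusted p = 0.0211). The 3 UV values of Il1a, Il1rn, Il18rap and Nlrp3 each lay on the raised floor with the 5. With the 6, those of Il18rap and Nlrp3 and 2 of those of Il1a did. With the panel median 4 members were higher, and Il1a (0.35) and Il1rn (0.40) turned. With quantile normalization 2 members were higher, and Nlrp3 (-0.62) and Nod1 (0.53) turned. So did Il1b (0.90), Il1r1 (0.32), Il1rap (0.62) and Nod1 (1.57) relative to Il1rn, Il1a relative to Il1r1 (-0.64), Il1b relative to Il1a (1.22) and Nlrp3 relative to Nod1 (-1.15). The causes were not tested.

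Leaving out each sample in turn gave 87 to 94 panel genes higher and 132 to 134 lower, 1 to 2 members higher (the second, without UV replicate 1, is Nlrp3) and 8 lower. Il1a relative to Il1rn ranged from -0.13 to 0.092 and never passed. It turned to 0.092 without UV plus BMS-202 replicate 1 and to 0.0097 without UV replicate 2. With the replicate block, 90 panel genes were higher and 132 lower, 1 member was higher and 8 lower, and no call of a member changed. Subtracting the negative control mean, chosen after seeing the data, kept 1 member higher and 8 lower, and moved Il18 to -5.55. Il18 relative to Il18rap, -6.18 as deposited, was -7.85 with this subtraction, -4.39 and -3.94 with the 6 and 5 housekeeping genes and -5.00 with quantile normalization. With the 6 and the 5 the UV values of Il18rap lay on the raised floor. The count models listed as alternatives were not run, because the deposited columns are not counts. Probe counts limit Il18 with BMS-202 (26 to 32) and Il18rap with UV (27 to 42), both near the negative controls.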
